A study of Mus musculus with 24 samples.

Results

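RNA polymerase II was mapped by chromatin immunoprecipitation with sequencing (ChIP-seq) in livers with an induced Myc transgene (tet-Myc) and in livers with induced Myc and YAP transgenes (tet-Myc/YAP), and the peak lists of these 2 samples, of 24 in the series, were set against each other. The tet-Myc/YAP list held 64678 peaks and the tet-Myc list 74914. A tet-Myc/YAP peak was called kept where it overlapped a tet-Myc peak by at least 1 bp and gained where it did not. A tet-Myc peak that overlapped no tet-Myc/YAP peak was called lost. The comparison asks how the polymerase differed when YAP was added to Myc.

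The tet-Myc genotype was R26-rtTA;tet-Myc and the tet-Myc/YAP genotype was R26-rtTA;tet-Myc;tet-YAP. All animals of the series carried R26-rtTA, which expresses the doxycycline-dependent transactivator in many tissues and not in hepatocytes alone, and transgenes were induced for 2 days. The paper describes the YAP transgene as an activated mutant form carried by Col1A1-YAP mice. Each genotype was 1 library, so no difference between genotypes could be tested, and the 95% intervals below cover counting error only. The labels and the paper do not state the age or number of animals behind a library. Liver holds several cell types, so a polymerase peak present in fewer cells and one that is weaker in each cell cannot be told apart.

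RNA polymerase II transcribes protein-coding genes. It gathers at promoters, where it often pauses shortly after initiation, and spreads across gene bodies as it elongates, so that strongly transcribed genes are covered over long stretches. It is also found at active enhancers. Myc binds promoters widely and is known for effects on both loading and pause release of the polymerase, while YAP acts through the DNA-binding TEAD proteins, largely at enhancers. Positions are on the mouse build mm9. Sites are given by position without gene names, as no annotation of mm9 was used here, and the liver label was not checked against marker genes.

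The libraries were close in depth. The tet-Myc/YAP list rested on 45.8 M ChIP tags and the tet-Myc list on 50.6 M, a ratio of 1.10, and the ratio of their peak numbers was 1.16. MACS2 estimated fragments of 288 bp and 307 bp for them, and these were also their narrowest peaks. The polymerase lists of tet-YAP and wild-type, used for reference, rested on 37.7 and 20.9 M tags and held 54617 and 39181 peaks. Among the lists of bound factors in tet-Myc/YAP, YAP had 11719 peaks, Myc 30327 and TEAD 52392. The YAP list had a control 9.61 times as deep as its ChIP library, unlike the others, whose controls were of equal depth.

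More polymerase peaks were lost than gained. Of the tet-Myc/YAP peaks, 52384 were kept, or 81.0% (80.7 to 81.3), and 12294 were gained, or 19.0% of the list. Of the tet-Myc peaks, 27167 were lost, or 36.3% of the list (35.9 to 36.6). In bases, the polymerase covered 74.9 Mb in tet-Myc/YAP and 92.5 Mb in tet-Myc, of which 60.9 Mb were shared. The shared bases were 81.3% of the first and 65.8% of the second. Gained peaks held 6.51 Mb, or 8.70% of the bases of their list, and lost peaks held 16.3 Mb, or 17.6%. With the tet-Myc list trimmed by −log10 q to the 64678 peaks of the other list, the lost share was 31.4% and the kept share 77.4%. With lists of equal length, an excess of lost peaks can come only from shared sites split into more peaks in tet-Myc/YAP. This setting therefore cannot show a net loss of sites. In the full lists 7474 tet-Myc peaks overlapped more than 1 tet-Myc/YAP peak, and 4791 tet-Myc/YAP peaks more than 1 tet-Myc peak.

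Whether a peak was kept went with its strength, as the plot of kept shares by decile shows. In the weakest decile of the tet-Myc/YAP list by −log10 q (the peak caller's measure of significance), 58.6% of peaks were kept (57.4 to 59.8), and in the strongest, 99.9%. In the tet-Myc list the kept share went from 31.8% (30.8 to 32.9) to 99.8%. Lost peaks were thus mostly among the weaker tet-Myc peaks, and in the top decile 7479 of 7492 were found in tet-Myc/YAP. Of the gained peaks, 67.1% had a −log10 q below 10, against 28.6% of the kept tet-Myc/YAP peaks. For lost and kept tet-Myc peaks the shares were 60.3% and 19.4%.

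**Figure D1:**
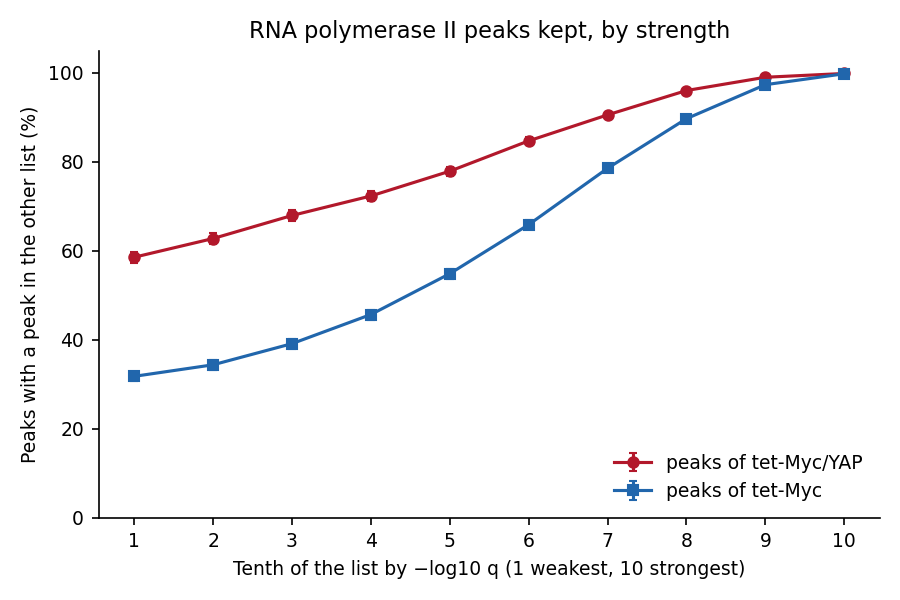
Share of RNA polymerase II peaks with a peak in the other genotype's list (y axis, %) by decile of −log10 q within the list (x axis, 1 weakest and 10 strongest), for the tet-Myc/YAP list (circles) and the tet-Myc list (squares). Bars are Wilson 95% intervals, often smaller than the symbols. The share rises from 58.6% to 99.9% in tet-Myc/YAP and from 31.8% to 99.8% in tet-Myc.

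Peaks were narrower in tet-Myc/YAP. The median width was 642 bp there and 700 bp in tet-Myc, a ratio of 0.917. Kept tet-Myc/YAP peaks had a median width of 742 bp and gained ones 404 bp, while kept tet-Myc peaks had 942 bp and lost ones 463 bp. Long stretches of at least 10 kb, of the kind seen over strongly transcribed genes, numbered 560 in tet-Myc/YAP and 660 in tet-Myc. Only 4 of the former were gained and 12 of the latter lost, so nearly all of these stretches had a counterpart in the other list.

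At shared sites the covered length leaned toward tet-Myc. Merging overlapping peaks of both lists gave 80839 loci, of which 41378 had polymerase in both genotypes. At these the median log2 ratio of covered bases, tet-Myc/YAP over tet-Myc, was -0.14. The covered length was at least 2 times greater in tet-Myc at 4506 loci, 10.9% of those shared, and at least 2 times greater in tet-Myc/YAP at 1342, or 3.24%. The 3 loci that added most covered bases in tet-Myc/YAP were chr11:16784510-16814426, chr9:48467587-48494753 and chr8:46754516-46792454. The first had 29.9 kb under polymerase peaks in tet-Myc/YAP and 1.53 kb in tet-Myc, with 29.9 kb in tet-YAP and 23.6 kb in wild-type. The second had 27.2 kb and no polymerase peak in tet-Myc, with 20.3 kb in tet-YAP and 5.34 kb in wild-type. The third had 37.9 kb against 11.2 kb, with 24.5 kb in tet-YAP and none in wild-type. At all 3 the polymerase of tet-YAP covered more than that of tet-Myc, no YAP peak of either genotype was present, and wild-type H3K4me1 was present.

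The 3 loci with the greatest loss were chr15:7079490-7123666, chr10:87320154-87362200 and chr4:104448135-104475862. The first had 9.97 kb covered in tet-Myc/YAP and 44.2 kb in tet-Myc, with 7.14 kb in tet-YAP and 20.4 kb in wild-type. The second had 13.2 kb against 42.0 kb, with 41.4 kb in tet-YAP and 10.8 kb in wild-type. The third had none against 27.7 kb, with none in tet-YAP and 0.326 kb in wild-type. The first and the second each held wild-type H3K4me3 and YAP, Myc and TEAD peaks of tet-Myc/YAP, and the third held Myc and TEAD but no YAP.

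Kept and unshared peaks lay at different kinds of sites. Peaks that overlapped H3K4me3 regions of wild-type liver, a mark of promoters, were termed promoter-like. Of the others, sites with wild-type H3K27ac, a mark of active enhancers and promoters, were called distal with H3K27ac, those with H3K4me1 alone, a mark of primed enhancers, distal with H3K4me1 only, and the rest unmarked. Kept tet-Myc/YAP peaks were promoter-like in 41.9% (41.4 to 42.3), and gained peaks in 13.3% (12.7 to 13.9). Unmarked sites made up 22.0% of the kept and 38.1% of the gained peaks. Lost peaks were close to the gained ones in this, with 14.1% promoter-like (13.7 to 14.5) and 34.6% unmarked (34.0 to 35.2). Gained peaks were unmarked somewhat more often than lost ones and had H3K4me1 alone less often, at 14.8% (14.2 to 15.4) against 16.8% (16.4 to 17.3).

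**Figure D2:**
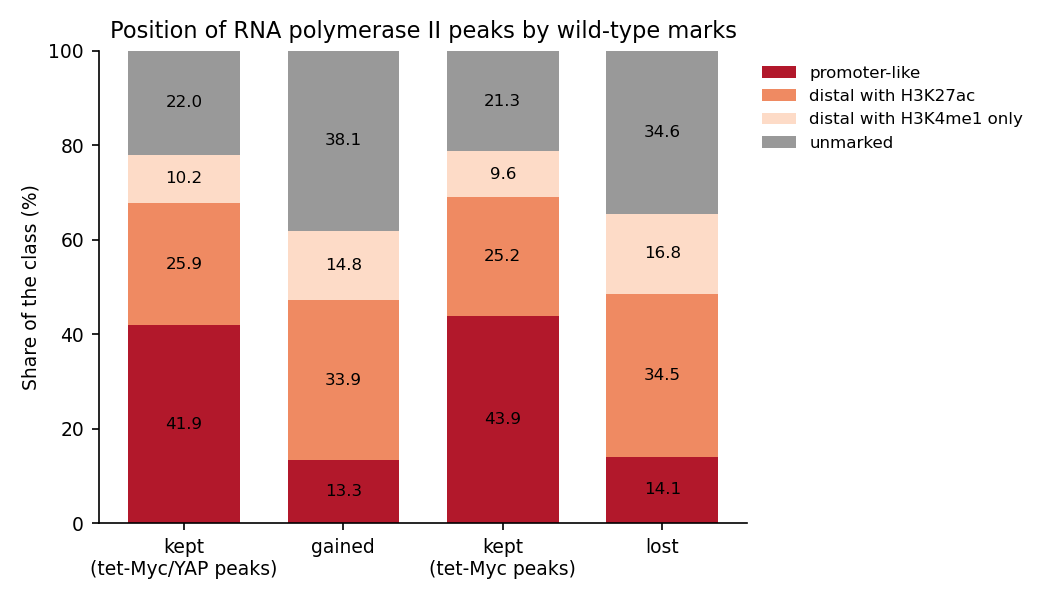
Position of RNA polymerase II peaks by wild-type histone marks. Each bar is 1 class of peaks, the y axis is the share of the class in percent, and the number in each block is that share. Promoter-like sites form 41.9% and 43.9% of the kept classes but 13.3% of gained and 14.1% of lost peaks.

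Seen from the sites, promoters kept their polymerase most often. Of the 23557 promoter-like tet-Myc/YAP peaks 93.1% were kept (92.7 to 93.4), against 76.6% at distal sites with H3K27ac, 74.6% at distal sites with H3K4me1 only and 71.2% at unmarked sites. For tet-Myc peaks the shares were 84.6%, 56.2%, 50.03% and 52.0%. Promoter-like peaks were also stronger, with a median fold enrichment over control of 9.30 against 4.39 at unmarked sites of tet-Myc/YAP. Strength and position were therefore also read together. In the ninth decile of −log10 q, the 62 gained peaks were promoter-like in 21.0% (12.7 to 32.6) and the 6406 kept ones in 79.4% (78.4 to 80.3). TEAD was there at 75.8% (63.8 to 84.8) of gained and 77.0% of kept peaks, YAP at 25.8% (16.6 to 37.9) and 38.5%, and Myc at 54.8% (42.5 to 66.6) and 77.6%. The 197 lost peaks of the same decile of tet-Myc were promoter-like in 37.1% (30.6 to 44.0) and carried TEAD in 49.2% (42.3 to 56.2), against 74.4% and 73.2% of the 7294 kept ones.

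YAP, Myc and TEAD of tet-Myc/YAP were more frequent at kept than at gained peaks. YAP was at 17.4% of the kept tet-Myc/YAP peaks (17.1 to 17.7) and at 253 gained peaks, or 2.06% (1.82 to 2.32). Myc was at 37.5% and 9.0%, and TEAD at 40.8% and 14.1%. No factor was found at 54.5% of the kept and 84.2% of the gained peaks, and all 3 were found at 16.3% and 1.68%. Of the 8765 tet-Myc/YAP peaks with all 3 factors 97.6% were kept, against 73.4% of the 38912 with none. Peaks with all 3 had a median fold enrichment of 17.2 and those with none of 4.44, so the factors moved with strength as well. At like strength the gap was smaller, though its size varied with the decile and the factor. In the weakest decile of −log10 q, YAP was at 1.48% of kept and 0.523% of gained peaks. Myc was there at 7.84% and 3.10%, and TEAD at 12.0% and 6.83%. In the fifth decile of −log10 q, YAP was at 3.53% of kept and 2.59% of gained peaks, Myc at 15.5% and 11.6%, and TEAD at 19.8% and 17.7%. In the eighth decile, YAP was at 16.7% of kept and 14.1% of gained peaks (10.4 to 18.9), Myc at 49.9% and 45.5% (39.5 to 51.6), and TEAD at 54.5% and 56.5% (50.3 to 62.4). In the ninth decile, given above, the gap was wider again for YAP, at 38.5% and 25.8% (16.6 to 37.9). It was also wider for Myc, at 77.6% and 54.8% (42.5 to 66.6), but not for TEAD, at 77.0% and 75.8%.

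Over all positions, gained and lost peaks held the 3 factors about equally often. YAP of tet-Myc/YAP was at 556 lost peaks, or 2.05%, and the difference from gained peaks was 0.0113 percentage points (-0.283 to 0.323). For Myc the lost share was 9.07% and the difference -0.0773 points (-0.680 to 0.541). For TEAD it was 14.9% and the difference -0.730 points (-1.47 to 0.0243). All 3 intervals included 0. With lists of equal length the differences were -0.553 points for YAP (-0.862 to -0.238), -2.09 for Myc and -3.52 for TEAD, each with an interval below 0. That setting removed the weakest peaks of the tet-Myc list only, so these differences depend on which peaks are compared.

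By position, the factors differed in opposite directions. At promoter-like sites they were more frequent at lost peaks, with YAP at 5.83% of lost and 4.10% of gained peaks, a difference of -1.73 points (-2.89 to -0.445). The differences there were -3.08 points for Myc (-5.55 to -0.534) and -3.21 for TEAD (-5.92 to -0.457). At sites without promoter marks or H3K27ac they were more frequent at gained peaks. At sites with H3K4me1 only, Myc was at 5.51% of gained and 2.89% of lost peaks, a difference of 2.62 points (1.52 to 3.85), and TEAD at 10.2% and 7.36%, a difference of 2.83 points (1.30 to 4.47). At unmarked sites YAP was at 14 of 4681 gained peaks and at 4 of 9395 lost ones, or 0.299% and 0.0426%. Myc was there at 1.64% and 0.543%, and TEAD at 3.33% and 1.75%. At distal sites with H3K27ac the intervals for YAP and Myc included 0, while TEAD was at 20.8% of gained and 23.2% of lost peaks, a difference of -2.36 points (-3.84 to -0.845). These factor lists are of tet-Myc/YAP, the genotype that defines gained peaks. Myc of tet-Myc was at 4.07% of gained and 3.83% of lost peaks with H3K4me1 only. At unmarked sites it was at 0.769% and 0.639%, and both intervals of the difference included 0. For TEAD of tet-Myc the interval included 0 with H3K4me1 only, and unmarked sites had 2.05% and 1.30%.

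**Figure D3:**
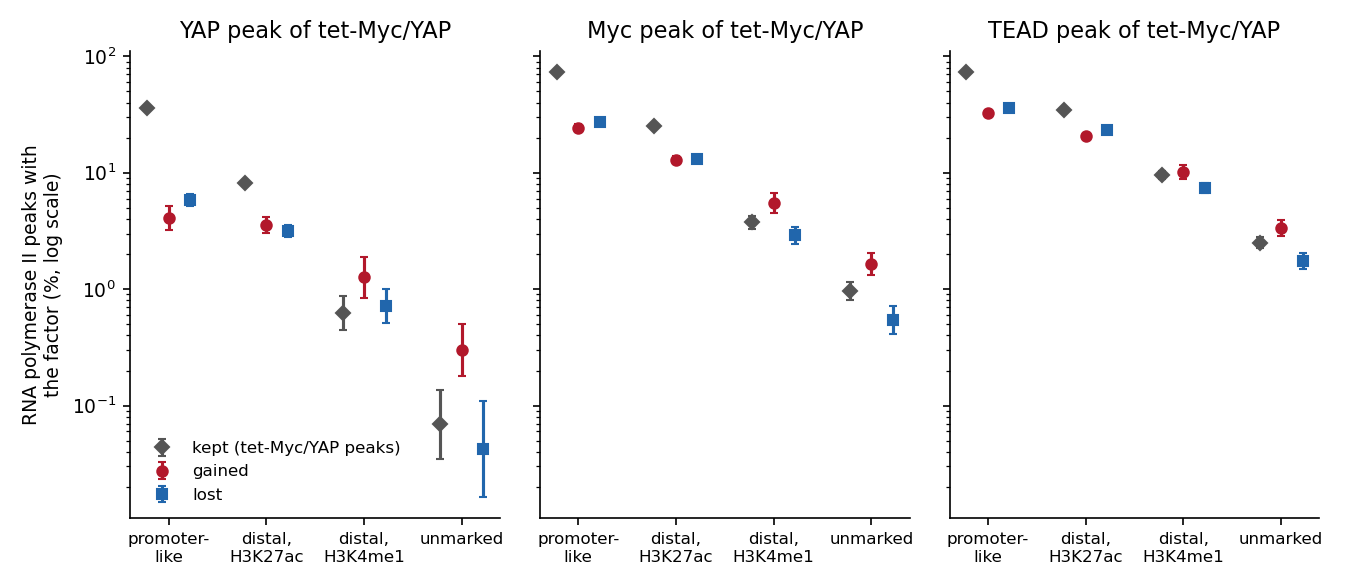
Share of RNA polymerase II peaks that overlapped a YAP, Myc or TEAD peak of tet-Myc/YAP (y axis, %, log scale) by wild-type marks (x axis), for kept tet-Myc/YAP peaks (diamonds), gained peaks (circles) and lost peaks (squares). Bars are Wilson 95% intervals. Kept peaks lie far above the others at promoter-like sites, and at unmarked sites gained peaks lie above lost ones for all 3 factors.

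The relation between YAP and keeping differed by position. At promoter-like sites 99.2% of the 8024 tet-Myc/YAP peaks with YAP were kept (98.9 to 99.3), against 89.9% of those without. At distal sites with H3K27ac the shares were 88.2% and 75.7%. At sites with H3K4me1 only, 33 of 56 peaks with YAP were kept, or 58.9% (45.9 to 70.8), against 74.7% without (73.7 to 75.7). At unmarked sites the counts were 8 of 22, or 36.4% (19.7 to 57.0), against 71.2% (70.5 to 71.9). These peaks were few, with a median fold enrichment of 5.68 and 7.43 against 4.39 in both classes without YAP. In the tet-Myc list the lower share with YAP was not seen, with 49.2% of 65 peaks kept at sites with H3K4me1 only against 50.03% without YAP, and 8 of 12 at unmarked sites, or 66.7% (39.1 to 86.2), against 52.0%.

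Over all positions, YAP of tet-YAP was more frequent at gained than at lost peaks, and Myc and TEAD of tet-Myc at lost than at gained peaks. The genotype that defines lost peaks is tet-Myc. YAP of tet-YAP was at 93 gained peaks, or 0.756% (0.618 to 0.926), and at 24 lost ones, or 0.0883% (0.0594 to 0.131). The share of kept tet-Myc/YAP peaks was 0.945% (0.866 to 1.03), so gained peaks did not exceed kept ones. That list had only 1328 peaks of 98 bp median width. At unmarked sites and at those with H3K4me1 only, no lost peak overlapped it. Myc of tet-Myc was at 6.39% of gained and 11.6% of lost peaks, a difference of -5.21 points (-5.78 to -4.63), and TEAD of tet-Myc at 9.94% and 12.4%, a difference of -2.51 points (-3.16 to -1.84). Myc of tet-YAP was at 1.31% and 1.76%, and TEAD of tet-YAP at 8.69% and 8.46%, a difference of 0.228 points whose interval included 0 (-0.362 to 0.834). Lost peaks thus carried Myc of tet-Myc more often than Myc of tet-Myc/YAP, which had fewer tags, 16.9 against 20.7 M.

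Compared with lost peaks, gained peaks more often had a mark in tet-Myc/YAP alone and less often in tet-Myc alone, at a small share of sites. H3K27ac found in tet-Myc/YAP and not in tet-Myc was at 3.96% of gained (3.63 to 4.32) and 1.87% of lost peaks (1.72 to 2.04). H3K4me3 found in tet-Myc/YAP and not in tet-Myc was at 3.18% (2.88 to 3.51) and 1.22% (1.10 to 1.36). In the other direction, H3K4me3 of tet-Myc alone was at 0.862% of gained and 1.96% of lost peaks, and H3K27ac of tet-Myc alone at 6.30% and 7.84%. H3K27ac of tet-Myc alone was thus more frequent than that of tet-Myc/YAP alone at gained peaks as well as at lost ones. Most gained and lost peaks therefore had no difference in either mark's presence.

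Few of the unshared peaks were seen in the genotypes without the Myc transgene. Polymerase of tet-YAP was at 25.04% of gained peaks (24.3 to 25.8), 20.1% of lost peaks (19.6 to 20.6) and 68.9% of the kept tet-Myc/YAP peaks. Polymerase of wild-type was at 8.85% of gained and 10.8% of lost peaks. Neither list held 72.5% of gained and 75.1% of lost peaks. The gained peaks were nearer than the lost ones to polymerase of the opposite list, with 76.7% of them within 5 kb of a tet-Myc peak and 62.7% of lost peaks within 5 kb of a tet-Myc/YAP peak. The opposite list was the longer one for gained peaks.

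The same imbalance was seen from the side of the promoters. Of 18852 wild-type H3K4me3 regions, 13602 had polymerase in both genotypes, 261 in tet-Myc/YAP alone and 1010 in tet-Myc alone, 0.258 gained per lost (0.226 to 0.296). Of the 7253 regions with all 3 factors 97.0% had polymerase in both, with 26 gained and 111 lost. Of the 5224 with Myc and TEAD but no YAP 86.2% had it in both, with 85 gained and 272 lost. Of the 3469 regions without a factor 16.7% had it in both and 72.3% in neither. In regions with polymerase in both, the median covered length was 1196 bp in tet-Myc/YAP and 1380 bp in tet-Myc, and 28.1% were covered further in tet-Myc/YAP. With YAP, Myc and TEAD these lengths were 1596 and 1790 bp, and 30.5% were covered further.

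Enhancer regions with both Myc and TEAD of tet-Myc/YAP came closer to balance, and other combinations did not. H3K27ac regions without H3K4me3 gave 221 gained and 873 lost, 0.253 per lost. Those with all 3 factors gave 61 and 126, or 0.484, and those with Myc and TEAD but no YAP 92 and 295, or 0.312. Myc alone gave 0.148, TEAD alone 0.161, YAP and TEAD without Myc 0.240, and no factor 0.122, from 19 and 156. H3K4me1 regions with neither other mark gave 121 and 321, or 0.377. With all 3 factors they gave 17 and 21, or 0.810, and with Myc and TEAD but no YAP 49 and 60, or 0.817. Myc alone gave 0.154, TEAD alone 0.327, and YAP and TEAD without Myc 1 and 11, or 0.0909. Without a factor they gave 17 and 109, or 0.156. Many of these counts are small, and these ratios carry no intervals. The factors are those of tet-Myc/YAP, whose polymerase defines a gained region. Regions were not divided by the factors of tet-Myc. With Myc and TEAD present, the ratio was higher with YAP than without it in H3K27ac regions and about the same in H3K4me1 regions.

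Among kept peaks, ranks changed little where YAP was present. Fold enrichment is not comparable between lists, so the 31730 peaks that matched 1 peak to 1 peak were ranked by it within each list and the ranks were subtracted, tet-Myc/YAP minus tet-Myc. A rise of at least 25 percentile points was seen in 2358 pairs, 7.43% of all, and a fall of that size in 2384, or 7.51%. In the 7204 pairs with YAP the median shift was 0.0504 points (-0.0205 to 0.158), with 3.23% rising and 3.10% falling that far. These pairs were also the stronger ones, with a median percentile of 82.3 in tet-Myc/YAP against 40.7 without YAP. In the 24526 pairs without YAP it was 0.235 points (0.0725 to 0.386), with 8.66% rising and 8.81% falling. A positive shift was seen for the 873 pairs with YAP at distal sites with H3K27ac. Their median was 1.79 points (0.224 to 2.803), with 14.2% rising (12.0 to 16.7) and 9.97% falling (8.15 to 12.1), while pairs without YAP at such sites had a median of -0.0788 (-0.577 to 0.460) with 11.8% in each direction. A positive shift was not particular to YAP. The 5746 pairs without YAP at unmarked sites had a median of 1.68 points (1.10 to 2.23), with 11.2% rising and 8.82% falling. The 13889 pairs without a factor had a median of 1.01 points (0.684 to 1.31). Pairs with TEAD alone had a median of -1.33 points (-2.07 to -0.577).

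The 3 pairs with the greatest rise were all promoter-like with YAP, Myc and TEAD in tet-Myc/YAP. The first, chr8:96695018-96699026, was a 4009 bp peak with a fold enrichment of 32.1 at percentile 95.9, where tet-Myc had a 422 bp peak of 3.14 at percentile 2.35. Wild-type had no polymerase peak there, and tet-YAP had one of 38.8-fold. The second, chr10:24315007-24320079, was 5073 bp wide with a fold enrichment of 26.9 at percentile 92.5, against 557 bp and 3.43 at percentile 5.04. It held YAP in both YAP genotypes, TEAD in all 4 genotypes and Myc in tet-Myc/YAP alone. H3K27ac was present there in the other 3 genotypes and absent from the list of tet-Myc. The third, chr7:111367213-111368002, moved from percentile 5.50 to 78.4. Wild-type polymerase was listed at the second with a fold enrichment of 12.5 and at the third with 5.29. In tet-YAP the second had a polymerase peak of 14.6-fold, and the third had neither polymerase nor YAP listed.

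The pairs with the greatest falls held no YAP. At chr15:3486129-3486527 a 399 bp peak of tet-Myc/YAP at percentile 3.58 faced a 6176 bp peak of tet-Myc at percentile 89.6, with H3K4me1 only and no factor of tet-Myc/YAP. At chr9:79644092-79644400 the percentile was 3.58 against 80.9, at a promoter-like site with Myc in tet-Myc and no Myc in tet-Myc/YAP. The third, on chromosome 18, went from percentile 78.1 to 1.12 at a promoter-like site with Myc and TEAD.

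Kept peaks with the highest −log10 q of the tet-Myc/YAP list were promoter-like and present in all 4 genotypes. They were chr4:131825613-131826716, chr15:3219981-3233874 and chr2:172976257-172987693, with fold enrichments of 69.8, 61.6 and 66.9 and −log10 q of 705, 666 and 654. YAP, Myc and TEAD of tet-Myc/YAP were at each of them.

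The strongest gained peaks were of another kind. The first was chr11:94814606-94817762, which was unmarked and 3157 bp wide, with a fold enrichment of 35.1 and a −log10 q of 277 at percentile 97.7 of its list. Polymerase was also listed there in tet-YAP, with a fold enrichment of 8.51 at percentile 72.2, and neither in tet-Myc nor in wild-type. The site was thus listed only in the 2 genotypes that carry the YAP transgene. Myc and TEAD were there in tet-Myc/YAP alone, and no H3K27ac or H3K4me3 was listed in any genotype. Whether this position is that of the transgene itself was not tested. The second, chr4:115205617-115208065, was unmarked in wild-type, had a fold enrichment of 21.4 and gained H3K27ac in tet-Myc/YAP alone, without a factor and without polymerase in any other genotype. The third, chr12:85357937-85361609, had H3K4me1 only, a fold enrichment of 25.4 and TEAD in tet-Myc/YAP alone.

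Of the 253 gained peaks with YAP, 60, or 23.7% (18.9 to 29.3), also had YAP of tet-YAP, against 4.48% of the kept tet-Myc/YAP peaks with YAP (4.07 to 4.92) and 9 of the 556 lost ones, or 1.62% (0.854 to 3.05). Polymerase of tet-YAP was at 40.3% of the gained peaks with YAP (34.5 to 46.5), at 24.7% of those without, and at 27.7% of the lost peaks with YAP (24.1 to 31.6). Single gained peaks with YAP follow. At promoter-like sites the strongest 3 were chr14:105654466-105655444, chr5:33679457-33680648 and chr19:34626197-34627085, with fold enrichments of 20, 16.9 and 16.9. All 3 had TEAD in all 4 genotypes and Myc in tet-Myc/YAP alone. Polymerase of tet-YAP was at the first and the second, and YAP of tet-YAP at the first. At distal sites they were chr8:32634784-32636486, chr9:102681493-102682289 and chr11:120113899-120114748, with fold enrichments of 19.3, 14.1 and 14.0. YAP and polymerase of tet-YAP were at all 3, and TEAD was there in all 4 genotypes. Among unmarked gained peaks the third in strength, chr5:149747782-149748602, had TEAD in all 4 genotypes, H3K27ac and H3K4me3 in tet-YAP and tet-Myc/YAP alone, and YAP and Myc in tet-Myc/YAP alone.

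The strongest lost peaks held no YAP of either genotype except 1. The first and the third lay near each other, at chr1:142052796-142061982 and chr1:142069581-142075419, with fold enrichments of 28.4 and 22.3 and polymerase in tet-YAP at both. Both had Myc in tet-Myc and not in tet-Myc/YAP. The second, chr4:107801576-107803829, had a fold enrichment of 26.9 at a distal site with H3K27ac, again with Myc in tet-Myc alone. Of lost promoter-like peaks the first was the second of these on chromosome 1, followed by chr19:39796392-39812961, 16570 bp wide, and chr2:73808891-73809819. The peak on chromosome 19 had no Myc, TEAD or YAP in any genotype and H3K27ac in wild-type alone. The peak on chromosome 2 had YAP of tet-Myc/YAP.

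Gained and lost peaks were unevenly spread along the genome. Of 14567 tiles of 50 kb with a kept tet-Myc/YAP, gained or lost peak, 604, or 4.15%, held at least 5 gained peaks, and these tiles held 42.2% of all gained peaks. At least 5 lost peaks were in 1765 tiles, or 12.1%, which held 57.9% of all lost peaks. At least 5 of each were in 94 tiles, 15.6% of those rich in gained peaks, against the 12.1% of all tiles. No lost peak was in 41.6% of the tiles rich in gained peaks and in 43.2% of all tiles. No gained peak was in 52.1% of the tiles rich in lost peaks and in 66.5% of all tiles. At the cut of 5 peaks, tiles rich in 1 class were thus not poorer in the other than all tiles. Tiles were not matched for their number of peaks, so these shares do not tell whether the classes were kept apart. The most crowded tiles mostly held 1 class. Of tiles with at least 20 gained peaks, 23 held no lost peak, 4 held 1, 1 held 2 and 2 held 3 or 4. Of tiles with at least 20 lost peaks, 52 held no gained peak, 9 held 1, 3 held 2 and 1 held 3 or 4. The most in a tile were 31 gained or 36 lost peaks.

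**Figure D4:**
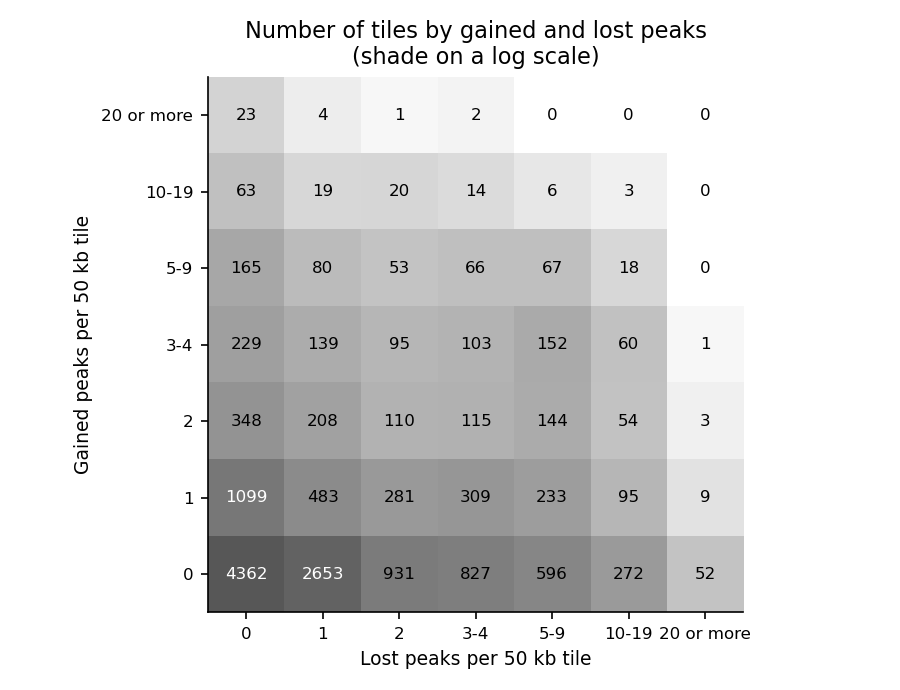
Number of 50 kb tiles with at least 1 kept tet-Myc/YAP, gained or lost RNA polymerase II peak, by gained peaks per tile (y axis) and lost peaks per tile (x axis). Each cell gives the number of tiles, and darker cells hold more tiles on a log scale. The bottom row and the left column are the fullest, with 4362 tiles that held only kept peaks, and 94 tiles held at least 5 of each class.

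The crowded peaks formed runs. A run was a series of at least 10 gained or of at least 10 lost peaks with gaps of at most 10 kb and no peak of the opposite class between them, a definition made after the lists had been examined. There were 113 runs of gained peaks with 2160 peaks, 17.6% of the class, and 406 runs of lost peaks with 7250, or 26.7%. Median spans were 35.4 kb and 38.2 kb. The runs with the most peaks were chr5:93114181-93289100 and chr5:89556432-89678129, with 63 gained peaks each, and chr14:100271481-100634269, with 165 lost peaks. Among peaks with a −log10 q of at least 10 there were 46 runs of gained and 173 of lost peaks, and with lists of equal length 150 of gained and 240 of lost peaks. The excess of lost over gained runs was thus smaller with equal lists.

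Livers that were not used to define the runs differed between both kinds. Polymerase of tet-YAP covered a median of 17.2% of the bases of gained runs and 5.55% of those of lost runs, and that of wild-type 2.23% and 3.06%. By construction, tet-Myc/YAP covered 50.6% of gained and 4.03% of lost runs, and tet-Myc 7.59% and 38.3%. The tet-YAP polymerase covered more of the run than that of tet-Myc in 81 of 113 gained runs, or 71.7% (62.8 to 79.2), although its library was the shallower, and in 18 of 406 lost runs, or 4.43% (2.82 to 6.90). Since tet-Myc coverage is low in gained runs and high in lost runs by construction, that contrast is partly set by the definition. The tet-YAP and wild-type values alone are free of it. In the run chr5:93114181-93289100, tet-Myc/YAP polymerase covered 26.4%, that of tet-YAP 9.34%, that of tet-Myc 3.00% and that of wild-type 0.424%. The run held 8 YAP, 12 Myc and 22 TEAD peaks of tet-Myc/YAP. In chr5:89556432-89678129 they were, in the same order, 50.6%, 1.32%, 4.28% and 0.264%, with no YAP peak. In chr14:100271481-100634269 they were 1.10%, 0.818%, 32.1% and 1.40%.

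**Figure D5:**
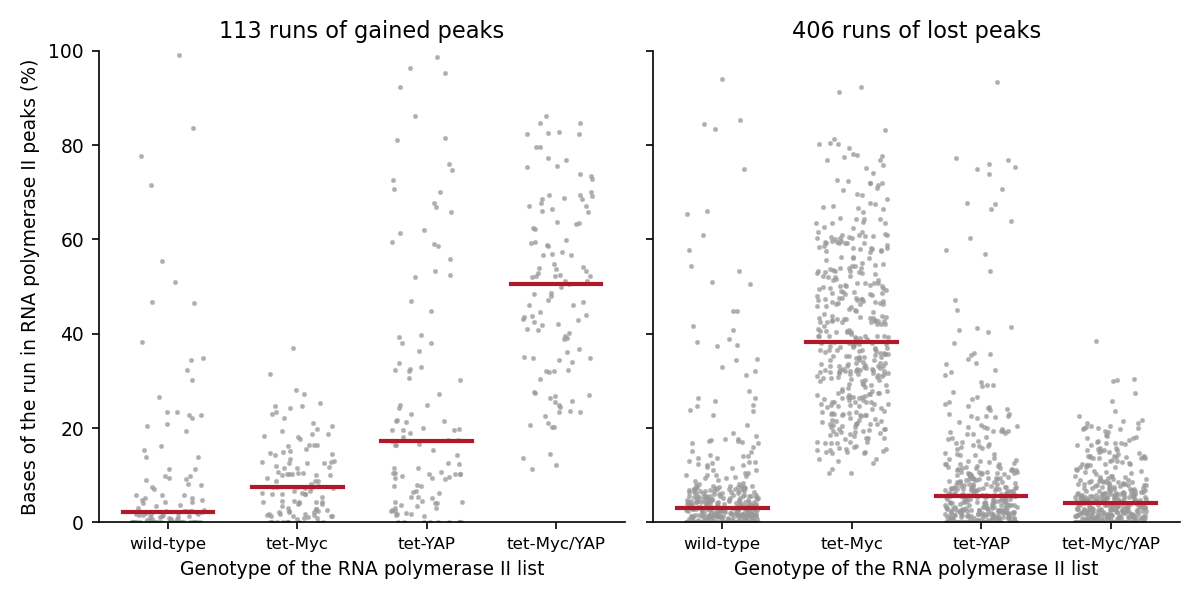
Share of the bases of each run that lay in RNA polymerase II peaks (y axis, %) in the 4 genotypes (x axis), for 113 runs of gained peaks (left) and 406 runs of lost peaks (right). Each point is 1 run and each bar a median. The tet-Myc and tet-Myc/YAP columns are set by the definition of a run. In tet-YAP the median is 17.2% for gained and 5.55% for lost runs.

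Factors and marks also differed between the kinds of run. Within 5 kb of the run, YAP of tet-Myc/YAP was found for 60.2% of gained and 44.1% of lost runs, a difference of 16.1 points (5.67 to 25.9). For YAP of tet-YAP the shares were 13.3% and 4.93%, a difference of 8.35 points (2.68 to 16.0). Myc of tet-Myc/YAP was near 82.3% and 72.7%, and TEAD near 95.6% and 86.9%, with differences of 9.64 (0.591 to 17.1) and 8.63 points (2.38 to 13.0). For Myc of tet-Myc, TEAD of tet-Myc, wild-type TEAD and wild-type H3K4me3 the intervals of the difference included 0. More bases of the run carried H3K4me3 in tet-Myc/YAP than in tet-Myc in 47.8% of gained and 19.0% of lost runs, a difference of 28.8 points (18.9 to 38.6). For H3K27ac the shares were 28.3% and 16.3%, a difference of 12.1 points (3.62 to 21.6). More H3K27ac in tet-Myc was found in 48.7% of gained and 61.3% of lost runs. Both kinds of run thus more often had the broader H3K27ac in tet-Myc, and lost runs more so. The mean share of a gained run under H3K4me3 was 7.54% for tet-Myc/YAP against 4.83% for tet-Myc. Wild-type had 7.61% there and tet-YAP 6.97%, so the mean of tet-Myc/YAP did not exceed that of wild-type. For lost runs the mean was 4.86% with tet-Myc/YAP, 5.46% with tet-Myc, 5.42% with tet-YAP and 7.64% with wild-type.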

How the data were processed

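The submitters' processing notes name the build mm9, the aligner BWA 0.6.2, SAMtools and the peak caller MACS2 2.0.9. Each narrow list (RNA polymerase II, Myc, TEAD, YAP) was, per the file headers, called on 1 library with its control at a p-value cutoff of 1.00e-05 and with at most 2 duplicate ChIP tags per position. The deposited lists give pileup signal at the summit, fold enrichment as a ratio over control, and −log10 p and −log10 q. The histone mark lists were deposited with a score that was not used to compare samples. Because the minimum peak width is the estimated fragment size, widths and overlaps depend on it, and a deeper library can yield more weak peaks.

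Overlaps of at least 1 bp were computed in Python 3.11.15 with numpy 2.4.6 and pandas 2.3.3. bedtools 2.31.1 gave the same 52384 kept peaks. On 2000 simulated peaks with 500 known partners the code passed 8 of 8 checks. Shares carry Wilson 95% intervals from scipy 1.17.1, differences of shares Newcombe intervals, and figures used matplotlib 3.10.9. The intervals treat peaks as independent, which neighbours are not, and do not cover differences between animals or libraries. Fold enrichment and −log10 q were compared between lists only as ranks.

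Single sites were the 3 peaks of highest −log10 q in each class, the 3 pairs with the greatest rise or fall in percentile rank, and the 3 loci that gained or lost most covered bases. The members, classes and rules were chosen with earlier results of these data known, and tiles and runs after the lists had been examined. The alternatives were a −log10 q of at least 10, lists of equal length, 50% overlap of the narrower peak, the summit lying inside the other interval, joining of peaks within 1 kb, and 4 width classes. The sample titled as an input was not analysed here, and no genome of build mm9 was used.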

Additional observations from a re-analysis of the deposited data

How the results depend on the processing

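The share of tet-Myc/YAP peaks that were kept was 83.2% with a −log10 q of at least 10, 77.4% with lists of equal length, 77.5% with 50% overlap, 75.5% with the summit inside and 84.3% with peaks joined within 1 kb. In the same order, the lost share of tet-Myc peaks was 33.8%, 31.4%, 39.1%, 43.0% and 32.5%, so in each of these settings the lost share exceeded the gained one. With lists of equal length that excess can come only from shared sites split into more peaks in tet-Myc/YAP. The ratio of median widths was 0.936 with the q limit and 0.812 with equal lists. The promoter-like share of gained peaks was 17.5% with the q limit and 12.3% by summit. The difference between gained and lost peaks with YAP was 0.389 points with the q limit and -0.553 with equal lists, and with equal lists those for Myc and TEAD were -2.09 and -3.52. Promoter regions gained per lost were 0.315 with equal lists and 0.301 by summit. Runs numbered 46 gained and 173 lost with the q limit, and 150 gained and 240 lost with equal lists, where only the tet-Myc list was shortened. The causes of these shifts were not tested, except that the q limit and equal lists remove peaks. The median rank shift with YAP stayed within 0.0429 and 0.0744 points. The 50% rule could not alter the width or promoter region ratios.

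No paired analysis was possible because each genotype was 1 library. Leaving out a replicate was not possible for the same reason. Most gained and lost peaks had a −log10 q below 10, so the depth of these libraries limits the call for them. A peak missing from a list is not evidence that the polymerase was absent.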
